A study of Mus musculus with 6 samples.

Results

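Group 2 innate lymphoid cells (ILC2) were examined in 6 single-cell RNA sequencing libraries of tissue around the adult mouse cerebral cortex. They were chosen by rule among barcodes that held 500 or more genes and no more than 10% mitochondrial unique molecular identifiers (UMIs, counts of captured mRNA molecules). A cell was an ILC2 if it had a UMI in at least 2 of Gata3, Il13, Il5, Il1rl1 and Areg, a UMI of Ptprc (the pan-leukocyte gene encoding CD45), and none of 9 genes of other cells. Those 9 were Cd3e, Cd3d and Cd3g for T cells, Cpa3, Ms4a2 and Mcpt4 for mast cells, Csf1r for myeloid cells, Cd79a for B cells and Ncr1 for NK cells. Of 8804 kept cells among 17560 deposited barcodes, 168 met the rule, and 139 of them came from the bone-associated libraries.

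The bone-associated preparation, of which there were 2 libraries, held tissue labelled dura and skull that was dissected from the inner face of the cranium. The cortical surface-associated preparation, of which there were 4 libraries, held tissue labelled brain that was freed enzymatically from the top of the cortex, leptomeninges included. All mice were untreated C57BL6 adults and were not perfused, several were pooled in each library, and viable cells were sorted before loading, so the library is the replicate and blood-borne and resident cells cannot be told apart. For the dissociation, the labels of all 6 libraries name papain and the ventricular-subventricular zone, whereas the study's methods name collagenase D and dispase II. Totals ranged from 8408685 to 56169736 UMIs per library, and hemoglobin genes took 84.6% and 71.9% of them in cortical surface libraries 3 and 4 against at most 0.520% in each of the other 4.

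ILC2 are tissue-resident lymphocytes that carry no rearranged antigen receptor. They respond to alarmins released by stromal and epithelial cells, among them IL-33, which binds the receptor encoded by Il1rl1, IL-25 and TSLP, and they secrete the type 2 cytokines IL-5 and IL-13 together with the growth factor amphiregulin, encoded by Areg. The transcription factors GATA3 and RORα are needed for their development, and the meninges, the dura in particular, are a known site of residence.

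Bone-associated libraries 1 and 2 held 33 and 106 ILC2, and cortical surface libraries 1 to 4 held 2, 5, 6 and 16. ILC2 made up 3.43% (95% exact binomial interval 2.37 to 4.78) and 4.24% (3.48 to 5.10) of the kept cells of the 2 bone-associated libraries. In the 4 cortical surface libraries they made up 0.269%, 0.399%, 0.544% and 0.714%, so the preparations did not overlap. The means were 3.83% ± 0.573 (SD, n = 2) and 0.482% ± 0.191 (SD, n = 4), a ratio of 7.96, with an exact two-sided permutation p of 0.133, which is the smallest that 2 against 4 libraries can give. Among cells with a UMI of Ptprc the shares were 6.64% and 8.62% against 0.621% to 1.12%. Against the lymphocytes only, ILC2 were 19.3% and 21.7% of all ILC2, T and NK cells in the bone-associated libraries. In the cortical surface libraries the same share was 5.88%, 16.1%, 3.73% and 5.19%, with the second of these resting on 5 ILC2 of 31 lymphocytes (95% interval 5.45 to 33.7). These intervals cover counting error only. Of the 139 bone-associated ILC2, 121 carried at least 1 UMI of a T cell receptor or coreceptor gene. With such cells left out, the shares of kept cells were 0.415% (4 cells) and 0.560% (14 cells) in bone-associated libraries 1 and 2 and 0.0937% (5 cells) over all cortical surface cells.

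**Figure D1:**
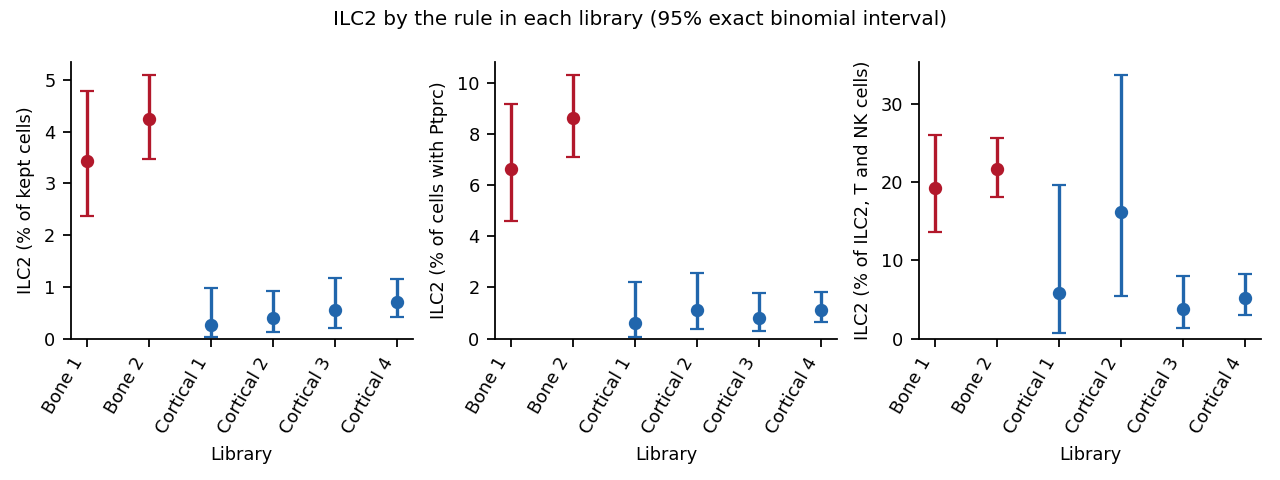
ILC2 as a percentage of kept cells (left), of cells with a UMI of Ptprc (middle) and of ILC2, T and NK cells (right) in each of the 6 libraries, with 95% exact binomial intervals. Both bone-associated libraries (red) lie above the 4 cortical surface libraries (blue) in all 3 panels, while cortical surface library 2 reaches 16.1% on the right with an interval of 5.45 to 33.7.

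The 9 excluded genes decided much of who was counted. In the bone-associated libraries, 235 kept cells had Ptprc and at least 2 of the 5 markers, of which 55 carried a UMI of a mast cell gene, 38 of a Cd3 gene, 3 of Ncr1, 2 of Csf1r and 2 of Cd79a. Among cells free of the 9 genes, 21 had exactly 2 markers, 46 had 3, 47 had 4 and 25 had all 5. Just outside the threshold, 56 cells had exactly 1 marker. Of those 56 cells, 58.9% had a UMI of Lyz2, a myeloid lysozyme gene, and 19.6% one of Rora, and their median was 14371 UMIs. Of the 21 cells with exactly 2 markers, 9.52% had Lyz2 and 71.4% had Rora, and their median was 6168 UMIs. Rora was found in 87.0% of the cells with 3 markers and 97.2% of those with 4 or 5. Cd74, an antigen presentation gene, was found in 66.1% of the cells with 1 marker, 28.6% with 2, 17.4% with 3 and 34.7% with 4 or 5, and so did not fall steadily with the number of markers. The most frequent combination was Gata3, Il13, Il1rl1 and Areg without Il5, in 30 of 139 cells, followed by all 5 markers and by Gata3, Il1rl1 and Areg, each in 25 cells.

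The label was checked against genes of other cells in the 139 bone-associated ILC2. No UMI was found of the 5 NK cell markers Klrb1c, Eomes, Gzma, Prf1 and Klre1, nor of Cd8a, Cd8b1, Cd5 and Cd6 of T cells, Mcpt8, Tpsb2, Fcer1a and Prss34 of basophils and mast cells, or Ms4a1 of B cells. Other members of these lists did have UMIs. Of 9 mast cell and basophil markers, 5 had 116 UMIs in 49 cells, with 70 of Kit in 39 cells. Of 5 B cell markers, 3 had 73 UMIs in 51 cells, with 67 of Ighm in 47 cells. Of 10 T cell receptor and coreceptor genes, 6 had 866 UMIs in 121 cells. The constant genes of the T cell receptor β locus were present, with 492 UMIs of Trbc2 in 108 cells and 358 UMIs of Trbc1 in 79 cells. Trbc2 was at 460 CPM (counts per 1000000 UMIs summed over the class) in ILC2, 313 in NK cells and 1269 in T cells. The source of these UMIs in ILC2 was not tested. Markers of macrophages and dendritic cells summed to 154 CPM in library 1 and 1905 in library 2, and their most abundant gene, Cd74, had 1129 UMIs in library 2, of which 1053 lay in a single cell. Endothelial markers summed to 353 and 327 CPM in the 2 libraries, with 127 UMIs of Flt1 in 8 cells. Fibroblast markers summed to 60.1 and 41.1 CPM, and mural cell markers to 33.8 and 137. No cell barcode was shared by ILC2 of different libraries, and 0 of 33 and 3 of 106 ILC2 scored as doublet-like.

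The 5 marker genes are described here without a test, since they chose the cells. Gata3 had 946 CPM in ILC2 of bone-associated library 1 and 1083 in library 2, and a UMI of it was found in 135 of 139 cells. Il1rl1, which encodes the IL-33 receptor, was at 781 and 544 CPM and was found in 126 cells. Areg was at 976 and 956 CPM in 102 cells. All 3 were thus within 1.5 times of each other between the 2 libraries. Il13 was at 586 CPM in library 1 and 1731 in library 2 (81 cells in all), and Il5 was at 544 and 279 (49 cells), with 92 of the 145 Il5 UMIs of library 1 in 1 cell. Without the richest cell of each library, Il5 was at 205 and 231 CPM. In B cells of the same libraries, which should lack these genes, a UMI was found of Gata3 in 0.943% of 318 cells, of Il13 and of Il1rl1 in 0.314% each, and of Il5 and Areg in 0 cells, which allows a share of cells with a UMI of up to 0.943% at this depth and sets no limit on cells that express the gene. The median depth was 4868.5 UMIs in these B cells and 6641 in ILC2. After each cell was thinned to 1500 UMIs, Il13 remained in 41.0% of ILC2 and 0.314% of B cells, and Il5 in 20.1% and 0%. No UMI of Il5 was found in 438 T cells or 53 mast cells. Il13 was also found in 49 of 53 mast cells, at 1295 CPM.

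Il13, Il5 and Areg were less evenly spread over the cells that the rule had gathered than Gata3 and Il1rl1. In bone-associated library 2, the 11 of 106 cells richest in a gene held 52.2% of the Il13, 70.5% of the Il5 and 59.8% of the Areg UMIs, but 30.5% of the Gata3 and 31.8% of the Il1rl1 UMIs. In library 1, the 4 richest of 33 cells held 66.0% of the Il13, 93.8% of the Il5, 58.1% of the Areg, 30.95% of the Gata3 and 32.7% of the Il1rl1 UMIs. The highest single cell carried 110 UMIs of Il13 in library 2 and 52 in library 1, and 92 UMIs of Il5 in library 1, and 136 UMIs of Areg in library 2 and 48 in library 1. At the other end, 43 of 106 and 15 of 33 ILC2 had no UMI of Il13, at median depths of 6269 and 7312 UMIs against 6641 and 7398.5 in the cells that had it.

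**Figure D2:**
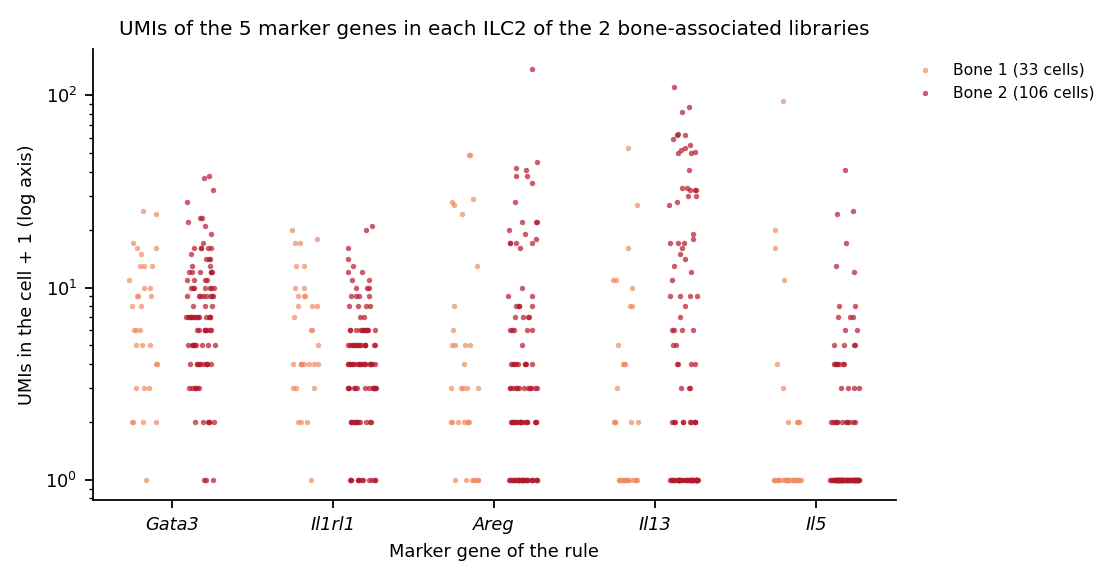
UMIs of each of the 5 marker genes plus 1 (log axis) in every bone-associated ILC2, 33 cells of library 1 (orange) and 106 of library 2 (red), where a cell at 1 had no UMI. Gata3 and Il1rl1 lie in most cells at up to 37 UMIs, while Il13, Il5 and Areg, with a UMI in 81, 49 and 102 of the 139 cells, reach 110, 92 and 136.

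The genes of Il5, Il13 and Il4 lie within a single stretch of chromosome 11, the type 2 cytokine cluster, at chr11:53720794-53725106 (plus strand), chr11:53631324-53634702 and chr11:53602982-53618669 (both minus strand) of GRCm38 (mm10). Their proximal promoters are shown because GATA3, the transcription factor in the rule, binds the letters GATA and because the 3 cytokines are read together below. Each run gives the 250 bases before the RefSeq start of the gene in GRCm38.p6, 5′ to 3′ in the direction of the gene, with GATA, or TATC where the match is on the other strand, in capitals. The windows are chr11:53634703-53634952 for Il13, chr11:53720544-53720793 for Il5 and chr11:53618666-53618915 for Il4.
Il13: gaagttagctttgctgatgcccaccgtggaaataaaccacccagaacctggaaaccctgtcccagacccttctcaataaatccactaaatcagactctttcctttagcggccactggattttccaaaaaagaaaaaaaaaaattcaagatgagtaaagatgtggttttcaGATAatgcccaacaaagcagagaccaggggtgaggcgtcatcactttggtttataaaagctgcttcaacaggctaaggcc
Il5: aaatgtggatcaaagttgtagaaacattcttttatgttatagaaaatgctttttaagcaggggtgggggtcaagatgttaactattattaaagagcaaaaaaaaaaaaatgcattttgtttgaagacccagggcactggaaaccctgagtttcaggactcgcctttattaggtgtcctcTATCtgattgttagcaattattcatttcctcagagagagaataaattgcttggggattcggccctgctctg
Il4: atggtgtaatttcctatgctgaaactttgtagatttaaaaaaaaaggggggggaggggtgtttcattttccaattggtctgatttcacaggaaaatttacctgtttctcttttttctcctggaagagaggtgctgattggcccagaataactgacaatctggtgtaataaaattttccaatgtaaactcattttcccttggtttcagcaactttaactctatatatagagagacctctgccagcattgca
The Il13 window has a single match that begins 80 bases before the start of the gene, the Il5 window a single match 71 bases before it, and the Il4 window none. A second RefSeq start of Il4, whose window is chr11:53617339-53617588, has 3 matches, 222, 79 and 36 bases before it. Of 32851 promoter windows of the same length, 53.6% hold the letters on either strand, so a match is common and describes only the sequence.

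The bone-associated ILC2 were also split by whether they had a UMI of Il13. In library 2, cells with a UMI of Il13 held 541 CPM of Il4, and 61.9% of them had a UMI of it, whereas cells without Il13 held 19.3 CPM and 14.0% had one. In library 1 the levels were 298 and 86.5 CPM, and the shares of cells were closer, at 44.4% of 18 and 33.3% of 15. The 11 cells of library 2 richest in Il4 held 79.9% of its UMIs. Without the richest cell of each group, Il4 was at 425 against 16.5 CPM in library 2 and 221 against 48.5 in library 1. Il5 was at 320 against 213 CPM in library 2. In library 1 it was at 756 against 268, but 92 of the 114 Il5 UMIs of the cells with Il13 lay in 1 cell. Without the richest cell of each group, Il5 was at 155 against 114 CPM in library 1 and 242 against 144 in library 2. Ccl1, a chemokine gene, was at 2684 against 1061 and 2368 against 1366, and Atf3, a stress-responsive transcription factor, at 383 against 126 and 1048 against 104. In library 1, however, 149 of the 158 Atf3 UMIs of the cells with Il13 lay in 1 cell, without which Atf3 was at 72.2 CPM, against 82.4 in the cells without Il13 and without their own richest cell. Cxcr4, a chemokine receptor gene, was at 261 against 129 in library 2 and 405 against 60.5 in library 1. Kit was at 79.1 against 32.2 and 119 against 25.9. In library 1 the cells without Il13 held only 7 UMIs of Cxcr4 and 3 of Kit. Areg, in contrast, was higher in the cells with Il13 in library 2 (1204 against 561 CPM) and lower in library 1 (557 against 1522). Il7r differed by less than 1.5 times in either library, and Csf2 was at 2141 against 1277 and 1685 against 1599. For Ccl1, Cxcr4, Kit, Areg and Csf2 the direction in each library was the same without the richest cell of each group. As the split uses a gene of the rule and 2 libraries, these values are descriptions with no test. The genes named are only a part of those split in this way. Leaving out the richest cell was an alternative chosen after the values were seen.

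Bone-associated ILC2 were then compared with T, NK and mast cells of the same 2 libraries, to place them among cells that share parts of their program. T cells needed a UMI of at least 2 Cd3 genes, NK cells one of Ncr1, and mast cells of at least 2 of their 3 genes, which left 438, 83 and 53 cells. The UMIs of each class were added up within a library, and edgeR's quasi-likelihood test, with the library as a block, was run on the 7384 genes that over 10% of the cells in some class carried. A call needed a p under 0.05 after Benjamini-Hochberg adjustment and a log2 fold change of 1.3 or more in either direction. Against T cells, 647 genes (8.76%) were called, 356 higher in ILC2 (4.82%) and 291 lower (3.94%). Against NK cells 784 genes (10.6%) were called, 448 higher (6.07%) and 336 lower (4.55%), and against mast cells 1452 (19.7%), 733 higher (9.93%) and 719 lower (9.74%). With DESeq2 in place of edgeR the calls were 346, 469 and 935. The classes were set by UMIs of the rule's genes in the same cells, so genes that travel with those differ in part by construction, and the 3 comparisons share the ILC2.

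Among the 20 transcription factors listed for ILC2 and lymphocytes, 19 were tested, of which 5 were higher in ILC2 than in T cells, 2 were lower and 12 were not called. The median log2 fold change of the 19 was 0.12, beside 0.01 over all genes tested. Rora, which encodes RORα, was at 1167 and 1027 CPM in the ILC2 of libraries 1 and 2 and at 433 and 537 in T cells, a log2 fold change of 1.303 ± 0.256 (SE; adjusted p = 0.000574). Lmo4, a LIM-domain cofactor, was at 1141 and 992 CPM against 174 and 164, a log2 fold change of 2.79 ± 0.248 (adjusted p = 3.17e-09). Both genes were higher in both ILC2 sums than in both T cell sums, as were 18.3% of the 7384 genes tested. Id2, the inhibitor of E proteins that innate lymphocytes require, rose by 1.59 ± 0.276 on the log2 scale and Bhlhe40 by 1.73 ± 0.285. Pparg, a nuclear receptor of lipid metabolism, had 44 UMIs, at 37.5 and 42.3 CPM, against 0 and 1.76 in T cells and no UMI in NK or mast cells. Tcf7, which encodes the T cell factor TCF1, was lower in ILC2, at 3.75 and 9.96 CPM against 239 and 144. Irf4 was also lower, with 7 UMIs in ILC2. Against NK cells, which also express Id2, Id2 was not called, while Rora, Lmo4, Bhlhe40, Pparg, Maf, Rbpj and Bcl11b were higher and Tcf7 and Nfatc1 were lower. Against mast cells 11 of the 19 were higher and 1, Nfatc1, was lower.

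Of 16 listed genes of secreted factors, 11 were tested, and 8 of these were higher in ILC2 than in T cells and none was lower, with a median log2 fold change of 3.05. Against mast cells 7 were higher and 4, Il4, Il6, Osm and Tnf, were lower. Csf2, which encodes GM-CSF, was at 1648 and 1807 CPM in ILC2 and at 26.8 and 154 in T cells (log2 fold change 4.85 ± 0.467, adjusted p = 1.34e-08). Ccl1, the ligand of CCR8, was at 1933 and 2057 CPM against 12.2 and 227 (5.11 ± 0.593, adjusted p = 4.16e-07). Both genes were many times higher in each ILC2 sum than in either T cell sum. Calca, the gene of the neuropeptide CGRP, was at 300 and 427 CPM against 17.1 and 78.7, a log2 fold change of 3.22 ± 0.333. Il4 was at 206 and 340 CPM against 8.53 and 10.6 in T cells, but mast cells held more of it, at 675 and 1993, and ILC2 were called lower there. Lif, a cytokine of the IL-6 family, was at 60.1 and 128 CPM against 3.66 and 3.52. Il2, Il6 and Osm were also called higher than in T cells, from 37, 9 and 23 UMIs in ILC2, and the 23 Osm UMIs all lay in library 2. The 3 tested members that were not called against T cells were Tgfb1, Tnf and Tnfsf11. No UMI of Il9 or Il10 was found in the 139 ILC2, and Penk, which encodes enkephalin, had 2 UMIs in ILC2 and 90 in T cells, the latter in 4 cells.

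Of 17 cytokine and costimulatory receptors, 16 were tested, and 4 were higher and 3 lower in ILC2 than in T cells (median log2 fold change 0.26). Il17rb, a subunit of the IL-25 receptor, was at 97.6 and 75.9 CPM in ILC2 and at 0 and 2.64 in T cells (log2 fold change 5.48 ± 0.552, adjusted p = 5.46e-08), with no UMI in NK or mast cells. Kit, the stem cell factor receptor, was at 78.8 and 61.0 CPM against 2.44 and 2.20 in T cells, far below the 1396 and 1101 of mast cells. Il2ra, the high-affinity IL-2 receptor chain, was at 342 and 228 CPM against 56.1 and 89.3, and Il9r at 48.8 and 38.6 against 4.88 and 5.28. The lower genes were Il18r1, at 26.3 and 19.9 CPM against 201 and 250, Il2rb and Tnfrsf4. Il7r, the receptor chain on which ILC2 depend, was shared with T cells (691 and 487 against 573 and 581 CPM, log2 fold change 0.13 ± 0.320) and higher than in NK cells, at 140 and 21.7. Icos, a costimulatory receptor, showed the same order, at 334 and 439 CPM in ILC2, 444 and 541 in T cells and 21.0 and 24.4 in NK cells.

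Of 13 listed receptor genes for neuropeptides, adrenergic ligands and lipids, 9 were tested, and 3, all receptors for lipids or fatty acids, were higher in ILC2 than in T cells and none was lower (median log2 fold change 0.61). Ptgir, the prostacyclin receptor, was at 131 and 101 CPM in ILC2 and at 0 and 2.20 in T cells, a log2 fold change of 6.12 ± 0.515. Cysltr1, a leukotriene receptor, was at 113 and 106 CPM against 9.75 and 2.20 (4.69 ± 0.454), and Ffar2, a receptor for short-chain fatty acids, at 37.5 and 21.2 against 2.44 and 3.96. Ramp1, Ramp3 and Ltb4r1 were called higher against NK and mast cells and not against T cells. Ramp1 encodes the subunit that makes a CGRP receptor with the product of Calcrl, and it was at 244 and 322 CPM in ILC2 and 216 and 309 in T cells, while Calcrl had 30 UMIs in ILC2. Nmur1, the neuromedin U receptor known from ILC2 of gut and lung, had 5 UMIs in ILC2 and none in the other 4 classes, too few to enter the test. No UMI of Ptgdr2, which encodes CRTH2, was found in ILC2.

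Of 17 genes of homing and tissue residence, 14 were tested, with 2 higher and 3 lower in ILC2 than in T cells (median log2 fold change 0.36). Ccr8, the receptor of CCL1, was at 60.1 and 51.0 CPM against 2.44 and 8.36, and the gut-homing receptor Ccr9 at 45.04 and 44.8 against 17.1 and 9.68. Genes of circulation through lymph nodes were among the lower ones. S1pr1, the egress receptor, was at 71.3 and 13.7 CPM against 180 and 159, and Ccr7 was at 0 and 95.8 against 149 and 157. The 77 Ccr7 UMIs of ILC2 all lay in library 2, 72 of them in 4.76% of its 63 cells with a UMI of Il13. In library 1, the 19 S1pr1 UMIs all lay in 5.56% of the 18 cells with a UMI of Il13. Both values thus rest on very few cells, which cannot show a link of either gene to Il13. Cxcr6, a residence-associated chemokine receptor, was at 807 and 1080 CPM in ILC2 and at 449 and 1071 in T cells, so it was not called there, and it was at least 153-fold higher than in mast cells, which had none and were set to a floor of 3 counts over the class.

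Among 13 inhibitory and regulatory genes 10 were tested, with 3 higher and 2 lower than in T cells (median log2 fold change 0.83). Cd200r1, an inhibitory receptor, was at 139 and 110 CPM against 4.88 and 8.80. Klrg1, a receptor linked to mature ILC2, was at 60.1 CPM in library 1 and 14.9 in library 2, both above the 4.88 and 0.880 of T cells. Ctla4 and Pdcd1, checkpoint receptors of T cells, were lower, at 3.75 and 2.49 and at 15.01 and 36.1 CPM.

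Some of the immediate-early and stress genes, which tissue dissociation can also induce, were higher in ILC2 than in the other lymphocytes. All 16 listed were tested, and 8 were higher than in T cells, 10 higher than in NK cells and none lower in either (median log2 fold changes 1.52 and 1.51). Fos was at 1047 and 1345 CPM in ILC2, 216 and 405 in T cells, 133 and 228 in NK cells and 4816 and 5698 in mast cells. Nfkbia was at 2079 and 2930 CPM against 383 and 712 in T cells. Against mast cells 11 of the 16 were lower in ILC2 and none higher (median -1.83). Fos in ILC2 thus lay above both lymphocyte classes and below mast cells in each library. Of all 7384 genes tested, 18.3% were higher in both ILC2 sums than in both T cell sums. The share was 18.9% against NK cells, and 35.1% were lower in both ILC2 sums than in both mast cell sums. Junb was among the 10 non-ribosomal and non-mitochondrial genes with the most UMIs in ILC2, at 3172 and 4050 CPM. The part of the dissociation in these values was not tested.

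All 11 tested genes of cytotoxic and type 1 cells were lower in ILC2 than in T and NK cells, with medians of -4.28 and -7.72 on the log2 scale when genes without a UMI in ILC2 were set to the floor. Of these, Eomes, Gzma, Ifng, Klrb1c and Prf1 had no UMI in ILC2. Gzma, at 7905 and 7828 CPM in NK cells, was at least 2799-fold lower. Ccl5 had 148 UMIs in ILC2, of which library 1 held 3.75 CPM and library 2 held 183. The 4 tested type 17 genes, Il17a, Il23r and Il1r1 among them, were all lower than in T cells, and none was called against NK or mast cells. Il17a had 2833 UMIs in T cells and none in ILC2, a difference of at least 327-fold. Of 7 cell cycle genes only Pcna and Top2a reached the test, and neither was called against T cells, while Pcna was lower than in NK cells (log2 fold change -1.38, adjusted p = 0.00506). Mki67 had 1 UMI in ILC2 and 38 in T cells.

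**Figure D3:**
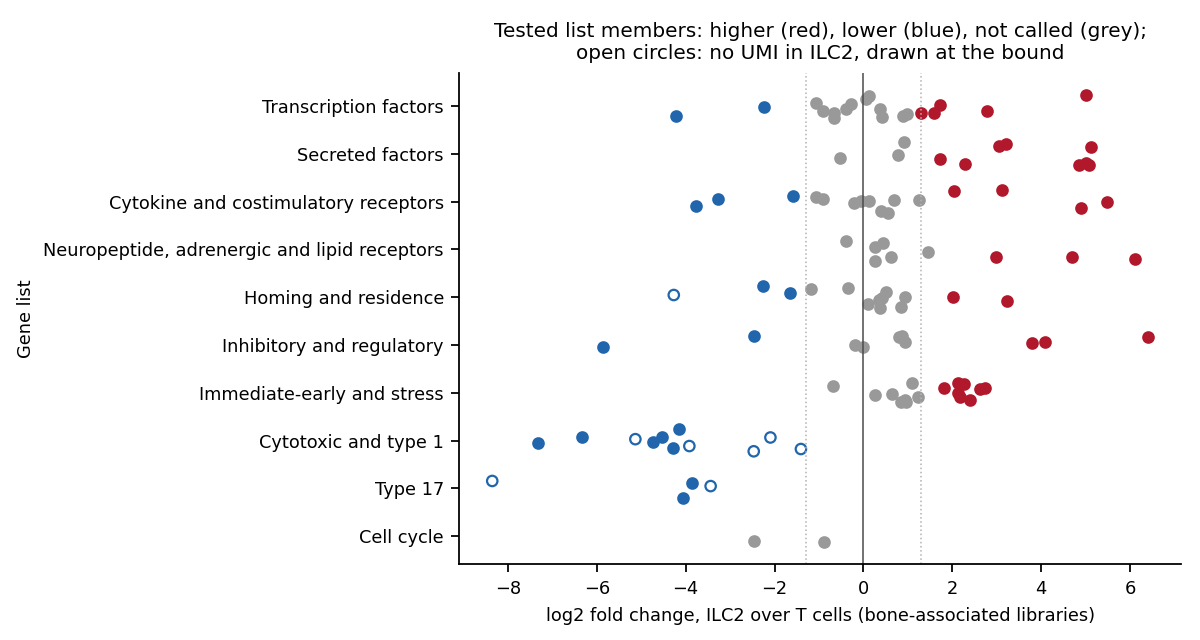
Log2 fold change of ILC2 over T cells in the bone-associated libraries for every tested member of the 10 gene lists, called higher (red), called lower (blue) or not called (grey), with dotted lines at 1.3 and -1.3. Open circles are genes with no UMI in ILC2, drawn at the bound that a floor of 3 counts gives. The secreted factors and the immediate-early genes hold called members on the higher side and none on the lower, and the cytotoxic and type 17 lists the reverse.

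**Figure D4:**
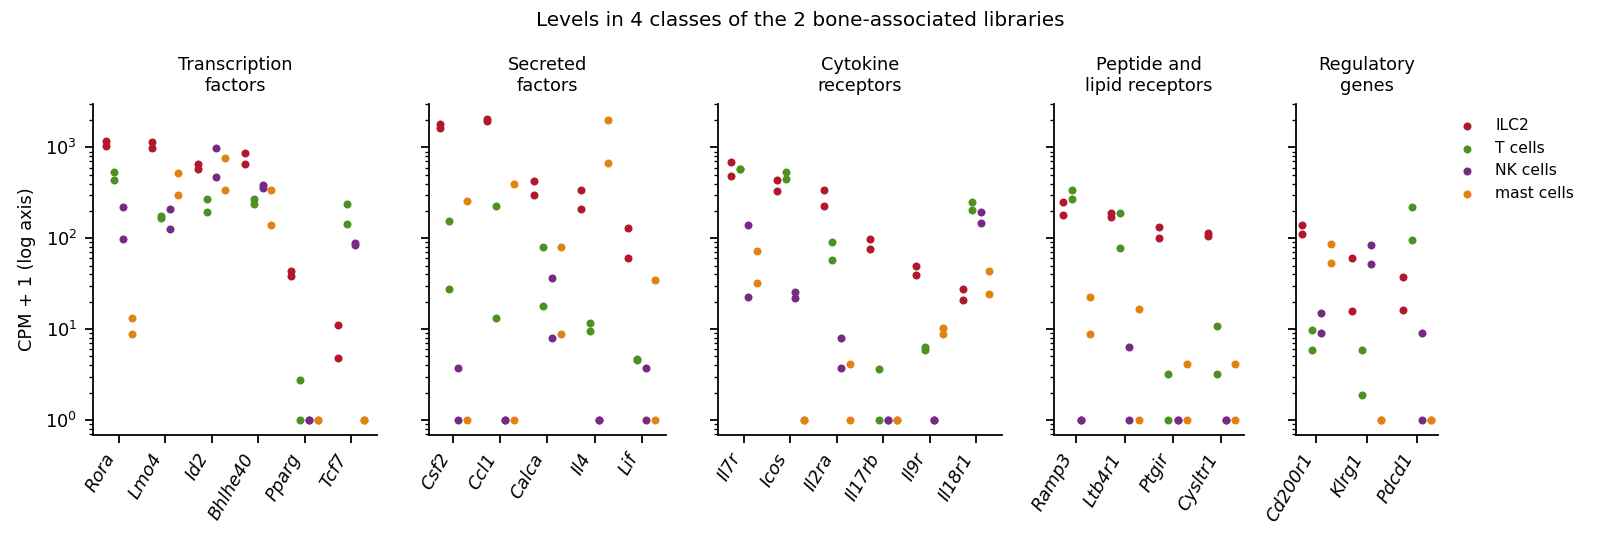
CPM plus 1 (log axis) of 24 genes in ILC2, T, NK and mast cells summed in each of the 2 bone-associated libraries, 1 point per library, where a point at 1 had no UMI. Csf2 and Ccl1 lie at 1648 or more in both ILC2 sums and at 397 or less in every other sum, and Pparg, Il17rb and Ptgir reach at most 3.08 outside ILC2.

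The 10 largest fitted changes in each direction against T cells were taken from called genes whose higher class held 50 UMIs or more and whose libraries did not overlap. Among those higher in ILC2 were Hs3st1, Ccdc184, Stab2, Bmp2, Slc7a8, Ptgir, Cd34, Il17rb and Cxcl2. Hs3st1, which encodes a heparan sulfate sulfotransferase, led with 300.3 and 399.5 CPM in ILC2 against 0 and 2.20 in T cells (log2 fold change 7.89 ± 0.427, adjusted p = 2.04e-12), and it had no UMI in NK cells. Ccdc184, which had 3 UMIs in T cells, was 248-fold higher (95% counting interval 83.8 to 1209). Stab2, a scavenger receptor of sinusoidal endothelium, was at 78.8 and 132 CPM against 0 and 1.76. Bmp2, a bone morphogenetic protein, was at 173 and 48.5 CPM against 0 and 1.32, an 81.9-fold difference (27.1 to 405). Its fitted log2 fold change was 6.27 with both libraries. The difference of log2 CPM, taken without a fit and with a prior count of 2, was 3.70 without library 1 and 5.93 without library 2. As the prior count pulls such differences toward no change, they cannot be set directly against the fitted value. Slc7a8, an amino acid transporter, was at 97.6 and 93.3 CPM against 0 and 1.76. Cd34, with 58 UMIs, was 55.9-fold higher (18.2 to 279). Cxcl2, a neutrophil chemokine, was at 203 and 665 CPM against 7.31 and 14.5. Of the 10, DESeq2 did not call Ccdc184, Stab2 and Bmp2. Their log2 fold changes were 8.32, 7.14 and 7.12 with DESeq2 and 7.81, 6.50 and 6.27 with edgeR.

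The 10 largest changes in the lower direction were all genes without a UMI in ILC2, so that only bounds can be given. They ran from Il17a (at least 327-fold), Cd163l1 (at least 128-fold), a gene of γδ T cells, and Actn2 (at least 59.7-fold) through Cd40lg, Cd5, Ifng, Cxcr3, Cd8b1 and Cd6 to Plcxd2 (at least 28.5-fold). Cd40lg, Cd5, Cd6 and Cd8b1 are surface molecules of T cells. DESeq2 called Cxcr3 and Plcxd2 of these and not the other 8. Its log2 fold changes for Il17a, Cd163l1, Actn2 and Cd40lg were -11.2, -9.27, -8.57 and -8.58. These values depend on the fit, because ILC2 had no UMI of the genes.

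Against NK cells the 5 largest higher genes were Ccl1, Hs3st1, Il4, Csf2 and Ramp3. Ccl1 had no UMI in NK cells and was at least 346-fold higher in ILC2, Hs3st1 at least 63.9-fold, Il4 at least 52.3-fold and Ramp3 at least 33.6-fold. Csf2, with 1 UMI in NK cells, was 904-fold higher (95% counting interval 162 to 35744). The 5 lower genes were Gzma, Prf1, Klre1, Klra4 and Klra7, granule and killer-receptor genes that had no UMI in ILC2, by at least 144-fold. The killer-receptor genes Klra4 and Klra7 belong to a family of near-identical copies whose reads can be shared. Against mast cells the higher genes included Cxcr6, Icos, Trbc1 and Pxdc1, each without a UMI in mast cells and at least 37.5-fold higher in ILC2. The lower genes were the proteases Tpsb2 and Cma1, the steroidogenic enzyme Cyp11a1, the chemokine Ccl3 and the adenosine receptor Adora3. Cma1 had 1 UMI in ILC2 and 11710 in mast cells, and the other 4 had none in ILC2, by at least 218-fold. DESeq2 did not call Klra4, Cyp11a1 and Adora3.

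Whether bone-associated ILC2 differed from those of the cortical surface could be asked only coarsely, since 29 ILC2 were found in the 4 cortical surface libraries. In cortical surface libraries 1 to 4, Gata3 was at 671, 657, 818 and 797 CPM and Il1rl1 at 527, 544, 678 and 602. Il1rl1 thus lay within or near the 544 and 781 of the bone-associated libraries, and Gata3 below their 946 and 1083. Il13 had 3 UMIs in 2 of the 5 cells of cortical surface library 2 and none in the other 3 libraries, where a floor of 3 counts is 144, 70.1 and 26.6 CPM. Il5 was at 0, 18.8, 70.1 and 8.86 CPM from 5 UMIs in all. Areg was at 288, 150, 70.1 and 26.6 CPM, each below the 956 and 976 of the bone-associated ILC2. These genes chose the cells and are not tested.

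A test between preparations had been planned for libraries with at least 10 ILC2, but only 1 cortical surface library had so many. With at least 5 ILC2 per library, a limit chosen after the cell numbers were seen, bone-associated libraries 1 and 2 were compared with cortical surface libraries 2 to 4. Of 6420 genes tested with edgeR, 82 (1.28%) were called, 78 higher (1.21%) and 4 lower (0.0623%) in bone-associated ILC2. At an unadjusted p under 0.05 there were 780 genes. The edgeR calls fell to 0 without bone-associated library 2 (507 genes at an unadjusted p under 0.05), to 6 without library 1, to 2 without cortical surface library 3 and to 5 without library 4, and they were 168 without cortical surface library 2. The 4 lower genes were the hemoglobin genes Hbb-bs, Hbb-bt, Hba-a1 and Hba-a2, named here after their values were seen, which took 0.294% and 0.267% of the ILC2 UMIs of cortical surface libraries 3 and 4 against at most 0.0156% in the other libraries.

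Of the 78 higher genes, 11 were in the lists: Rora, Bhlhe40, Ccl1, Tnf, Icos, Ramp3, Cxcr4, Gpr183, Dgat1, Socs3 and Atf3. Of these 11, 9 lost their call without bone-associated library 1 and all 11 without library 2. Without cortical surface libraries 2, 3 and 4 in turn, 1, 10 and 8 of them lost it. Ccl1 was at 1933 and 2057 CPM in bone-associated ILC2 and at 0, 37.5, 0 and 62.0 in cortical surface libraries 1 to 4 (log2 fold change 5.81 ± 0.481, adjusted p = 1.21e-05), and it was called in every left-out run but that without bone-associated library 2. Rora was at 1167 and 1027 CPM against 95.9, 357, 234 and 186 (2.38 ± 0.350, adjusted p = 0.00427). Icos was at 334 and 439 against 0, 113, 117 and 53.1 (2.44 ± 0.423), and Bhlhe40 at 875 and 650 against 95.9, 357, 117 and 106 (2.29 ± 0.447). None of these 4 genes overlapped between the preparations, and 10.5% of all 6420 genes likewise lay higher in both bone-associated libraries than in all 4 others. Atf3 was at 638 and 284 CPM against 0, 18.8, 0 and 0. In bone-associated library 1, 149 of the 170 Atf3 UMIs lay in 1 cell. Socs3, a feedback inhibitor of cytokine signalling, and Tnf had no UMI in any cortical surface ILC2 and were at least 10.5-fold and 6.16-fold higher. Csf2, at 1648 and 1807 CPM against 0, 1126, 46.7 and 79.7, was not called (2.38 ± 0.708, adjusted p = 0.133). Il7r, Cxcr6, Lmo4 and Il4 were not called either. In the cytotoxic and type 17 lists no gene was tested, and in the immediate-early list 1 of 16 was called, with a median log2 fold change of 0.84 beside 0.12 over all genes. Of the 78, 28 rested on at most 5 UMIs in the 4 cortical surface libraries together.

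Markers of some other cells, but not of all, moved with the same contrast. Those of macrophages and dendritic cells summed to 154 and 1905 CPM in bone-associated ILC2 and to 0, 93.8, 46.7 and 26.6 in the cortical surface libraries, and Cd74, H2-Aa and H2-Ab1 were among the 78 genes. In bone-associated library 2, 1 cell held 1053 of the 1129 Cd74 UMIs, and 1 cell held 313 of the 336 H2-Aa UMIs. Fibroblast markers summed to 60.1 and 41.1 CPM against 0 UMIs in all 4 cortical surface libraries. B cell markers, at 52.5 and 73.4 CPM against 47.9, 131, 117 and 151, overlapped between the preparations. So did endothelial markers, at 353 and 327 CPM against 0, 18.8, 23.4 and 744. The part of these markers in the calls was not tested. In T cells of the same 5 libraries, 493 of 5792 genes (8.51%) were called between the preparations, 388 higher (6.7%) and 105 lower (1.81%) in the bone-associated ones, with Rora, Atf3, Cxcr4, Dgat1 and Ramp3 among the higher. The difference between the ILC2 and the T cell contrast was called for 33 of 6918 genes (0.477%), 20 of them upward (0.289%) and 13 downward (0.188%). Of the 11 list genes above, only Socs3 and Tnf passed that test.

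**Figure D5:**
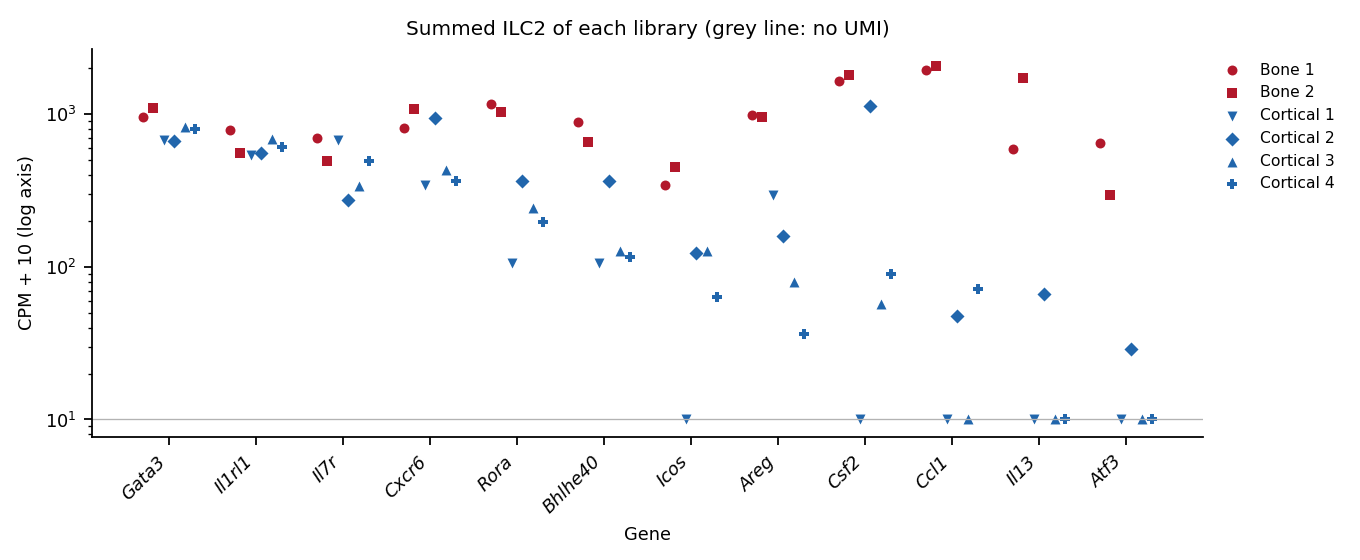
CPM plus 10 (log axis) of 12 genes in the summed ILC2 of each library, bone-associated in red and cortical surface in blue, where a point on the grey line had no UMI. Il1rl1, Il7r and Cxcr6 overlap between the preparations, whereas the other 9 genes, Gata3, Rora, Bhlhe40, Icos, Areg, Csf2, Ccl1, Il13 and Atf3, are higher in both bone-associated libraries than in all 4 cortical surface libraries, as are 10.5% of all 6420 genes tested. The genes were chosen with their values known, and Gata3, Il1rl1, Areg and Il13 belong to the rule.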

How the data were processed

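The authors aligned reads of 6 10x Genomics 3′ libraries to mm10 with Cell Ranger (version 3 in the submitters' notes, 6.1.2 in the matrix headers) and deposited raw UMI counts per gene and barcode; these counts, for 31053 genes, were the only values used. Of these genes 30934 were found in GENCODE vM21 (GRCm38). The rule above was applied to each barcode. Doublets were scored against simulated ones and kept, and no correction for free RNA was made. UMIs were summed per library and class, normalized by TMM and tested with edgeR 4.0.16 (R 4.3.3), after a test on simulated data. The library was a block, since classes come from the same libraries, and the correlations of library deviations between classes ran from 0.0752 to 0.220. CPM are counts per 1000000 UMIs of a class, and a class without a UMI was given a floor of 3 counts over its total. Named genes are the rule's genes, list members with at least 20 UMIs in ILC2 or a call, and the largest changes described. The members, lists and tests were chosen with earlier results of these data known. Alternatives were DESeq2 1.42.0, another normalization, gene and cell filters, other rules for ILC2, thinning to 1500 UMIs and leaving out libraries. Promoter windows are RefSeq's, in GRCm38.p6. Imaging and spatial data were not analysed here. A few list members and named genes are not reported here.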

Additional observations from a re-analysis of the deposited data

Results flagged for a closer look

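Among 10 groups of 4 cortical surface libraries checked for a library far from the others, 2 stood out. How many would stand out by chance was not tested. One was Il13, a gene of the rule, at 56.3 CPM from 3 UMIs in ILC2 of cortical surface library 2, while the other 3 libraries had none. As a floor of 3 counts is 144 and 70.1 CPM in libraries 1 and 3, that library cannot be placed above them. The other was Csf2, for which cortical surface library 2 was the highest, at 1126 CPM against 0, 46.7 and 79.7. The 60 Csf2 UMIs of that library lay in 2 of its 5 ILC2.

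The change between preparations differed between ILC2 and T cells, by the test of the difference itself, for 5 genes of the lists. Id2 differed by 1.59 ± 0.314 (SE) on the log2 scale (edgeR adjusted p = 0.000268), with a T cell contrast of -1.16 and an ILC2 contrast of 0.47. Tnfsf11, the gene of RANKL, differed by -3.17 ± 0.702 (adjusted p = 0.0027), where T cells were higher in the bone-associated libraries by 3.39 and ILC2 by 0.09. Ltb4r1 differed by -1.80 ± 0.404 (adjusted p = 0.00336). Socs3 differed by 8.22 (adjusted p = 0.012) and Tnf by 7.97 (adjusted p = 0.0395), fitted values that depend on the prior count because no cortical surface ILC2 had a UMI of either gene.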

How the results depend on the processing

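The share of ILC2 among kept cells in bone-associated libraries 1 and 2 and over all cortical surface cells fell most when cells with a UMI of a T cell receptor or coreceptor gene were left out (0.415%, 0.560% and 0.0937%). After thinning to 1500 UMIs it was 2.00%, 1.37% and 0.194%. With at least 3 markers it was 3.48% in bone-associated library 2 and 0.169% over the cortical surface, and without 6 genes of other cells 0.356% over the cortical surface. The other share settings stayed within the 95% intervals.

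Counts of called genes against T, NK and mast cells (all, higher, lower) were 346, 209 and 137, 469, 250 and 219, and 935, 458 and 477 with DESeq2. They were 255, 126 and 129, 371, 206 and 165, and 701, 351 and 350 after thinning. Without cells carrying T cell receptor or coreceptor genes, 404 genes (176 higher), 459 (219 higher) and 834 (339 higher) were called. That fit rested on 4 and 14 ILC2 in libraries 1 and 2. It moved the median log2 fold change of all genes from 0.013, 0.044 and 0.004 to -0.41, -0.24 and -0.35. With genes in over 25% of the cells of a class, 411 (233 higher and 178 lower) were called against T cells. Without the replicate block the calls were 510, 626 and 1271, and none of the 40 named changes lost its call without it. Of the 40 named changes against these classes, 14 lost their call with DESeq2 and all kept their direction except Trbc1 against mast cells, which became -0.014 when cells with it were left out.

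Between preparations, 222 genes (204 higher, 18 lower) were called with every library, 126 (13 lower) with upper quartile normalization, which moved the median of all genes from 0.12 to -0.04, and 0 lower without hemoglobin genes. The 11 list genes called there kept their direction throughout, with the call kept in 56 refits and lost in 43. Leaving out 1 library in turn gave 0 to 168 calls, 0 to 160 higher and 0 to 8 lower. With 29 cortical surface ILC2 and 229851 UMIs, a gene under about 13.1 CPM there is below the floor of 3 counts.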
